A study of Mus musculus with 12 samples.

Results

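The growth hormone and IGF1 axis was followed in mouse liver through 10 genes, chosen by symbol from the 55421 genes in the count table. They are the growth hormone receptor gene Ghr, its signal transducer Stat5b, the feedback inhibitors Socs2 and Cish, the ligand gene Igf1, the acid-labile subunit gene Igfals, and the binding protein genes Igfbp1, Igfbp2, Igfbp3 and Igfbp4. All 10 passed the low-count filter, as did 15006 genes in all. Total liver RNA was profiled in 12 libraries of wild-type mice that carried tumours of E0771, a mouse mammary carcinoma line, placed in the mammary fat pad. Housing was at 6 °C for libraries 1 to 4, at 22 °C for 5 to 8 and at 29 °C for 9 to 12, and livers were taken on day 21. Every group carried the tumour, no tumour-free group was analysed here, and the labels give neither age nor sex. The growth protocol names Balb/C and C57Bl6/J mice without assigning a strain to a library. Mice were acclimatized to their temperature beforehand, with free access to food. Nothing in the labels says that each library came from a separate mouse, so p-values reflect only how much these libraries vary, which may be technical.

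Pituitary growth hormone binds its receptor on hepatocytes, JAK2 then phosphorylates STAT5, and STAT5 drives transcription of Igf1, Igfals, Socs2 and Cish. The liver is the main source of circulating IGF1, which travels in a complex with IGFBP3 or IGFBP5 and the acid-labile subunit. IGFBP1 and IGFBP2 bind IGF1 in smaller complexes, and their hepatic transcripts are known to be high when insulin is low. FGF21, a hormone that the series title names and that hepatocytes secrete, has been described in mice as dampening hepatic growth hormone signalling through STAT5. Fgf21 itself averaged 27.4 ± 12.5 CPM at 29 °C, 5.87 ± 4.93 CPM at 22 °C and 0.559 ± 0.697 CPM at 6 °C, where libraries 2 and 4 had no count. It was called higher at 29 °C than at 6 °C (edgeR adjusted p = 0.0228) but not than at 22 °C (edgeR adjusted p = 0.2475). The call was lost without library 3, 4, 10 or 11. Any part of Fgf21 in the levels of the 10 genes was not tested. CPM relates a gene's counts to its library's total after TMM scaling, and levels with ± are means and SDs of 4 libraries.

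Total counts ran from 7615585 to 19001126, so that 3 counts, the limit that a count of 0 allows, correspond to between 0.150 and 0.398 CPM on the scaled basis, for counting error alone. Libraries 1, 7, 8 and 9 held 134 to 248 counts of H2-Ea-ps, the class II alpha chain gene whose transcription is lost in C57BL/6 mice, and the other 8 held 0. These 4 libraries stand apart and are spread unevenly over the temperatures (1, 2 and 1), so results are also given with this split as a term in the fit and over the 8 libraries that lack this transcript. All 10 hepatocyte markers were detected in every library, with a summed share of 8.16% to 19.5% of scaled counts. That sum was 94356 to 135818 CPM at 6 °C, 89457 to 195315 CPM at 22 °C and 81598 to 167400 CPM at 29 °C, and it was lowest in library 9. Alb alone averaged 78556 ± 19931 CPM at 6 °C and 100993 ± 34924 CPM at 29 °C. It made up most of the sum there, so the sum is mainly a reading of Alb. Sums for other cells at 6 °C, 22 °C and 29 °C were 513 to 945, 412 to 1107 and 610.5 to 1352 CPM for Kupffer cells, 10.6 to 769, 329 to 1466 and 497 to 2496 CPM for neutrophils, and 114 to 217, 70.3 to 127 and 118 to 473 CPM for erythroid cells. They were 34.6 to 60.9, 46.8 to 55.4 and 34.7 to 84.2 CPM for bile duct cells. The 10 intestinal markers summed to 316 to 737, 225 to 367 and 432 to 845 CPM. Only 3 of these 10 were detected in every library, so the sum is no measure of intestinal cells. No tested gene of these 5 sets was called in any comparison by edgeR, but only 2 of the 10 intestinal and 5 of the 6 bile duct markers were tested. Of the 10 hepatocyte markers, Tat, the glucocorticoid-induced tyrosine aminotransferase gene, was called lower at 29 °C than at 6 °C, at 781 ± 269 against 2400 ± 768 CPM (edgeR adjusted p = 0.0227). Tat is named here after its values were seen, and the median of the 10 markers was -0.18 on the log2 scale. The part of any of these sets in the results was not tested. Xist lay between 1433 and 2869 CPM, and 4 Y-linked genes together had between 0 and 3 counts in any library.

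Igf1, Ghr, Stat5b and Socs2 had their lowest means at 29 °C, whereas Cish, Igfbp1 and Igfbp2 had their highest means there. At an adjusted p under 0.05 in edgeR's quasi-likelihood test, 0 of the 10 genes were called in any of the 3 comparisons. Over all genes tested the called share was 2.53% for 29 °C against 6 °C, 0.00% for 29 °C against 22 °C and 0.0333% for 6 °C against 22 °C. At an unadjusted p under 0.05 the axis counted 5, 4 and 3 genes in the same order, beside 19.4%, 14.9% and 11.9% of all genes. DESeq2 called Ghr, Igf1 and Igfbp4 for 29 °C against 6 °C, where it called 7.97% of all genes. For 29 °C against 22 °C it called Igf1 and Igfbp2 (2.17% of all genes), and for 6 °C against 22 °C it called Igfbp4 (1.19%). limma voom with quality weights called Ghr, Cish and Igf1 in the first comparison and none of the 10 in the others. Its shares over all genes were 7.40%, 0.287% and 0.0267% in the same order. The 3 comparisons share libraries in pairs and are not independent of one another. In bulk tissue, fewer cells of a type and less RNA per cell cannot be told apart.

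**Figure D1:**
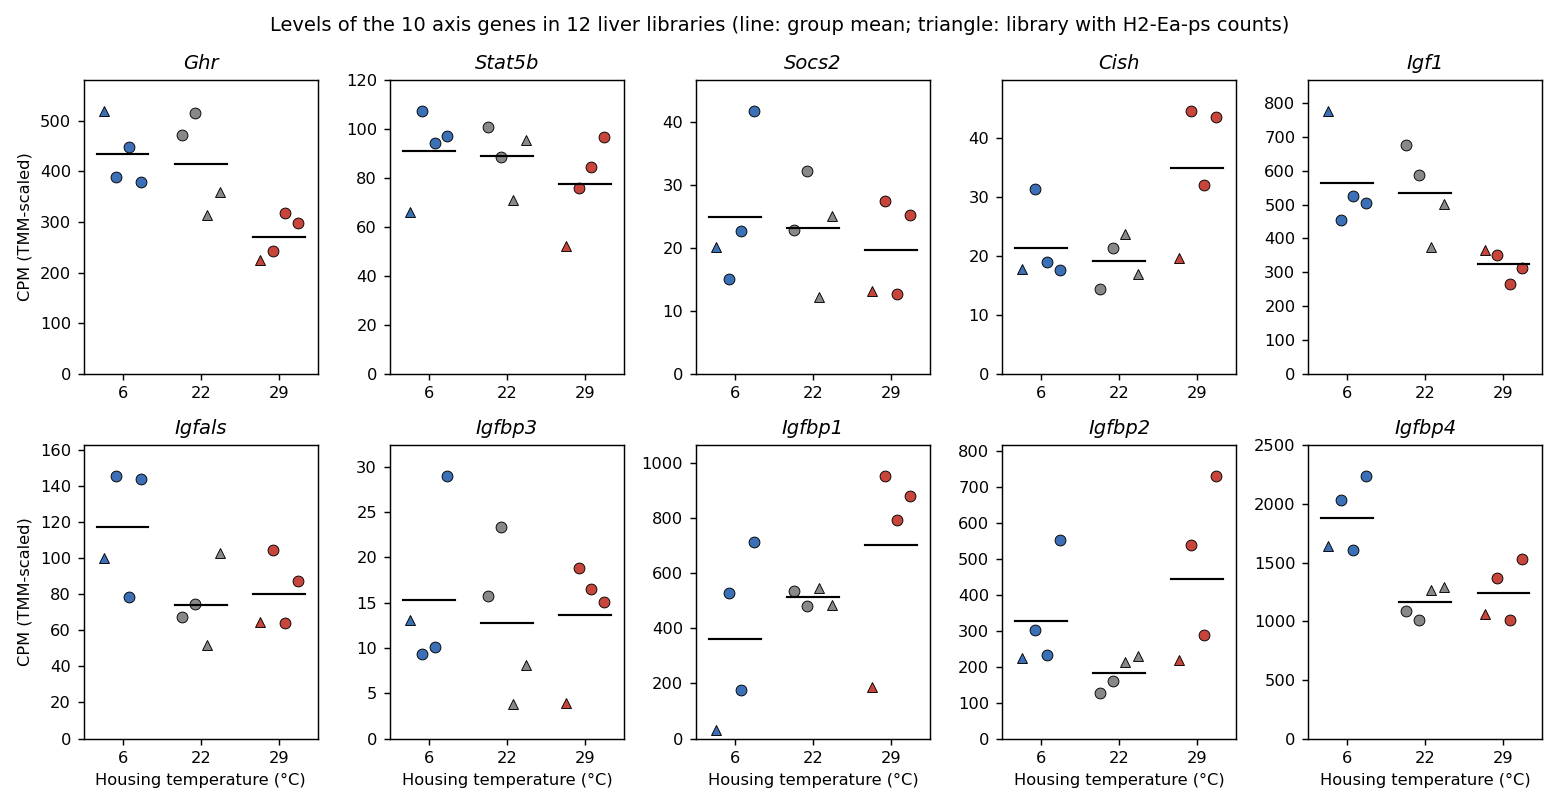
Level of each of the 10 genes (vertical axis, CPM after TMM scaling, starting at 0) in each library against housing temperature (horizontal axis, °C). Each point is 1 library, lines are means of 4, and triangles are the 4 libraries with H2-Ea-ps counts; for Igf1 all 29 °C libraries (266 to 364.5 CPM) lie below all others (374 CPM and above).

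Start regions are shown for the 3 genes in which a searched motif was found, since STAT5 and insulin are the known regulators of these genes. RefSeq windows of 300 bases on GRCm38.p6 were found for 9 of the 10 genes (14 windows), and Socs2 was not searched. They were searched on both strands for the STAT5 motif TTCNNNGAA and for CAAAACA, the core of the insulin response element. Of 32851 mouse windows, 8.3% held the first and 6.28% the second. Among the axis genes the STAT5 motif was found in 3 windows, of Cish and Igfals, and CAAAACA in 1 window, of Igfbp1. Each line gives 250 bases before the RefSeq start site and 20 after it, on the plus strand, with motif matches in capitals. The lines lie at chr9:107296409-107296678 (Cish), chr17:24877981-24878250 (Igfals, the second of 3 windows) and chr11:7197537-7197806 (Igfbp1).
Cish: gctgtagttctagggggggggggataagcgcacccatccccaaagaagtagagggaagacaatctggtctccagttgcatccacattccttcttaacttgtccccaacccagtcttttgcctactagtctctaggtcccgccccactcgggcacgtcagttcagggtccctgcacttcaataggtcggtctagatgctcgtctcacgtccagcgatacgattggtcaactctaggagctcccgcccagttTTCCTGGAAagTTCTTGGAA
Igfals: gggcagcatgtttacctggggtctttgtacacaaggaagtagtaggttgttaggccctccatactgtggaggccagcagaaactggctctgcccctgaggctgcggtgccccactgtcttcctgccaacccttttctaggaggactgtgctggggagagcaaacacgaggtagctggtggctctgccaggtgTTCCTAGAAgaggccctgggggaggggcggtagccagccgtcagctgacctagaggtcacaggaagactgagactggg
Igfbp1: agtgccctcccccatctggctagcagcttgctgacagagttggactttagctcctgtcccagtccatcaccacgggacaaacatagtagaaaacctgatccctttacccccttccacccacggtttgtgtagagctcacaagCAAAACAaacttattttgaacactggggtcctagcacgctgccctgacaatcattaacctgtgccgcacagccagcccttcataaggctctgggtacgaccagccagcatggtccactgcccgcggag
In Cish the 2 STAT5 matches span bases 1 to 9 and 12 to 20, counted from 1 at the start site. In Igfals the match spans bases -58 to -50, and another window held TTCTCAGAA at -236 to -228. In Igfbp1 the match spans bases -108 to -102. No motif overlapped another. A match of letters is a description and shows no binding.

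Ghr encodes the growth hormone receptor (GRCm38 chromosome 15, 3317760 to 3583492, minus strand, ENSMUSG00000055737.12; all positions below are on GRCm38). It stood at 518.5, 388, 448.5 and 378 CPM at 6 °C, at 473, 515, 314 and 359 CPM at 22 °C, and at 225, 243, 318.5 and 297 CPM at 29 °C. All 29 °C libraries lay below all 6 °C libraries, and they overlapped with 22 °C through library 7 alone. Ghr was 1.60-fold lower at 29 °C than at 6 °C, with a log2 fold change of -0.68 (SE 0.19, 95% interval -1.09 to -0.26), which did not pass over all genes (edgeR adjusted p = 0.0775). Against 22 °C it was -0.62 (SE 0.19, edgeR adjusted p = 0.212). Between 6 °C and 22 °C the interval ran from -0.35 to 0.48 on the log2 scale. Groups lay wholly lower at 29 °C than at 6 °C for 3 of the 10 genes (Ghr, Igf1 and Igfbp4), beside 6.74% of all genes, and for Igf1 alone at 29 °C against 22 °C, beside 3.79%.

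Stat5b encodes the main STAT5 protein of hepatocytes (chromosome 11, 100780731 to 100850724, minus strand, ENSMUSG00000020919.11). Its levels overlapped at all temperatures, from 66.1 to 107 CPM at 6 °C, 71.0 to 101 CPM at 22 °C and 52.3 to 96.7 CPM at 29 °C. The highest level over the 12 libraries was 2.05 times the lowest, the narrowest range of the 10 genes. The log2 fold change was -0.24 at 29 °C against 6 °C (95% interval -0.66 to 0.19) and -0.20 against 22 °C (-0.62 to 0.22). Stat5b shares most of its coding sequence with Stat5a, and how reads common to both were counted is not given in the sources used here.

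Cish and Socs2 encode SH2-domain proteins of the SOCS family that damp cytokine receptor signalling, and both are known STAT5 targets. Cish (chromosome 9, 107296026 to 107302784, plus strand, ENSMUSG00000032578.7) stood at 17.7, 31.4, 19.0 and 17.6 CPM at 6 °C, at 14.4, 21.3, 23.75 and 16.9 CPM at 22 °C, and at 19.7, 44.6, 32.1 and 43.65 CPM at 29 °C. Libraries 10, 11 and 12 were the highest of all 12, and library 9 lay within the range of the other temperatures. The log2 fold change of Cish was 0.88 at 29 °C against 22 °C (SE 0.27, edgeR adjusted p = 0.203) and 0.72 against 6 °C (SE 0.27, edgeR adjusted p = 0.161), neither of which passed. Leaving out 1 library gave 0.74 to 1.07 against 22 °C and 0.58 to 0.94 against 6 °C. The lowest of each came without library 10 (edgeR adjusted p = 0.502 and 0.350), and without library 9 the values were 1.07 and 0.91 (edgeR adjusted p = 0.0606 and 0.0688).

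Socs2 (chromosome 10, 95385362 to 95417180, minus strand, ENSMUSG00000020027.18) lay between 15.0 and 41.7 CPM at 6 °C, 12.2 and 32.2 CPM at 22 °C, and 12.6 and 27.5 CPM at 29 °C. The 3 groups overlapped, and the log2 fold change at 29 °C against 6 °C was -0.35 (95% interval -1.15 to 0.45). At 29 °C against 22 °C the Socs2 value was -0.23 (95% interval -1.03 to 0.57), and without library 4 the value against 6 °C was 0.023. In the fit of all libraries Cish and Socs2 had opposite signs at 29 °C against both other temperatures, but both Socs2 intervals include 0. No test compared these genes with each other. Per kilobase of exon, Cish stood at 2.23, 2.41, 3.77 and 2.56 times Socs2 in the 29 °C libraries. At 6 °C this ratio was 0.626 to 3.10 and at 22 °C 0.934 to 2.89. All 29 °C libraries exceeded 6 of the 8 colder libraries, and libraries 2 and 7 were the exceptions. These ratios were chosen after the levels were seen, and no test was made of them. Genes on the strand opposite Cish (Gm17040 and Gm17041) had at most 4 counts in any library.

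Igf1 encodes the insulin-like growth factor that carries much of the growth-promoting effect of growth hormone (chromosome 10, 87858265 to 87937042, plus strand, ENSMUSG00000020053.18). It stood at 775, 455, 524 and 505 CPM at 6 °C, at 675, 588, 374 and 500.5 CPM at 22 °C, and at 364.5, 350.4, 266 and 314 CPM at 29 °C. The 29 °C libraries were the lowest 4 of the 12, library 11 was the lowest and library 1 the highest. Igf1 was 1.74-fold lower at 29 °C than at 6 °C (log2 fold change -0.80, SE 0.22, 95% interval -1.27 to -0.34), which missed the threshold over all genes (edgeR adjusted p = 0.0656). Against 22 °C it was 1.65-fold lower (log2 fold change -0.72, SE 0.22, edgeR adjusted p = 0.196). The means at 6 °C and 22 °C, 565 ± 143 and 534 ± 128 CPM, differed by less than 1 SD of either group, with an interval of -0.38 to 0.54 on the log2 scale. Both differences from 29 °C stayed negative in all 23 alternatives tried, between -0.61 and -0.90 against 6 °C and between -0.59 and -1.03 against 22 °C. Igf1os, on the opposite strand, had 1 to 31 counts per library, and its reads cannot be told apart from those of Igf1 if strand was not used in counting.

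Igfals encodes the liver-made protein that holds IGF1 and IGFBP3 in the long-lived circulating complex (chromosome 17, 24865997 to 24882010, plus strand, ENSMUSG00000046070.9). It stood at 100.1, 145, 78.6 and 144 CPM at 6 °C, at 67.5, 74.35, 51.9 and 103 CPM at 22 °C, and at 64.4, 104, 63.75 and 87.4 CPM at 29 °C. Its highest values were those of libraries 2 and 4 at 6 °C, and the groups overlapped. The log2 fold change was 0.66 at 6 °C against 22 °C (SE 0.25, edgeR adjusted p = 0.325) and -0.55 at 29 °C against 6 °C (SE 0.25, edgeR adjusted p = 0.245), and at 29 °C against 22 °C its interval ran from -0.42 to 0.64. Igfals thus had nearly equal means at 22 °C and 29 °C, 74.1 ± 21.3 and 79.9 ± 19.6 CPM, where Igf1 had 534 ± 128 and 324 ± 44.0 CPM.

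Igfbp3 encodes the main IGF carrier of adult blood, and in liver its transcript is known mostly from non-parenchymal cells (chromosome 11, 7206086 to 7213923, minus strand, ENSMUSG00000020427.11). It ranged from 9.31 to 28.9 CPM at 6 °C, 3.77 to 23.3 CPM at 22 °C and 3.94 to 18.8 CPM at 29 °C. Libraries 7, 8 and 9, which hold H2-Ea-ps counts, had the lowest 3 values, and library 1, which holds them too, stood at 13.03 CPM. The interval at 29 °C against 6 °C, from -1.47 to 1.11 on the log2 scale, was too wide to show a 2-fold difference in either direction. The summed level of 10 liver endothelial markers was 479 to 637 CPM at 6 °C, 531 to 784 CPM at 22 °C and 585 to 777 CPM at 29 °C, and that of 10 stellate cell markers 419 to 1017, 568 to 886 and 496 to 762 CPM. Their part in the level of Igfbp3 was not tested.

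Igfbp1 encodes a small hepatocyte-made binding protein that insulin represses within hours, and it ends 3539 bases from the end of Igfbp3 on the other strand (chromosome 11, 7197782 to 7202546, plus strand, ENSMUSG00000020429.7). It stood at 30.1, 529, 175 and 711 CPM at 6 °C, at 535, 482, 547 and 483 CPM at 22 °C, and at 188, 951, 792 and 879 CPM at 29 °C. The 22 °C libraries were close together (coefficient of variation 6.65%), while those at 6 °C spread over 23.6-fold (coefficient of variation 86.8%). Over all 12 libraries the highest level was 31.6 times the lowest, the widest range of the 10 genes, and its SD on the log2 scale exceeded that of 97.5% of all genes tested. Libraries 10, 11 and 12 had the highest 3 values. The log2 fold change at 29 °C against 6 °C was 0.96 (95% interval -0.69 to 2.61, edgeR adjusted p = 0.523), and leaving out 1 library gave 0.58 (without library 1) to 1.52 (without library 4). At 29 °C against 22 °C it was 0.46, and with the split term it turned to -0.38.

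Igfbp2 encodes the binding protein that is prominent in fasting and in low growth hormone states (chromosome 1, 72824503 to 72852474, plus strand, ENSMUSG00000039323.18). It stood at 224, 304, 232 and 553 CPM at 6 °C, at 127.5, 159, 214 and 229.7 CPM at 22 °C, and at 218, 539.8, 288 and 731 CPM at 29 °C. Libraries 12, 4 and 10 were the highest, and at 29 °C library 9 alone lay within the 22 °C range. Igfbp2 was 2.43-fold higher at 29 °C than at 22 °C (log2 fold change 1.28, SE 0.39, 95% interval 0.44 to 2.13), which did not pass (edgeR adjusted p = 0.204). It was also higher in the mean at 6 °C than at 22 °C, with a log2 fold change of 0.85 (SE 0.39, edgeR adjusted p = 0.419). Per kilobase of exon, Igfbp2 stood at 3.20, 8.26, 5.81 and 12.5 times Igf1 in the 29 °C libraries. At 22 °C the ratio was 1.01 to 3.06, below every 29 °C library, and at 6 °C it was 1.55 to 5.88, a range that takes in libraries 9 and 11. This pair was chosen after the levels were seen and sets a gene with a high mean at 29 °C over one with a low mean, so the ratio is a description with no test.

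**Figure D2:**
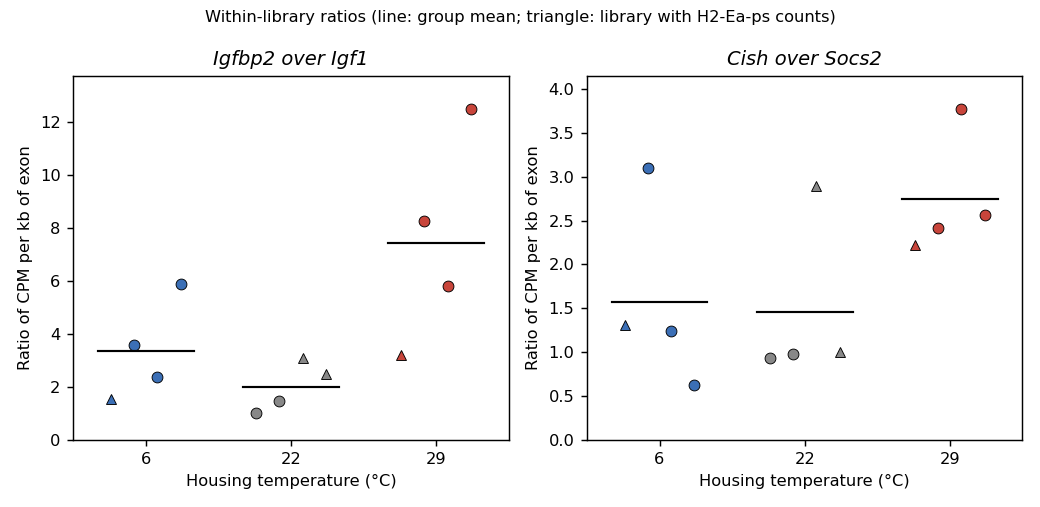
Ratio of CPM per kilobase of exon within each library (vertical axes, starting at 0) against housing temperature (°C), for Igfbp2 over Igf1 and for Cish over Socs2. Points are libraries, lines are means of 4, and triangles are libraries with H2-Ea-ps counts; Igfbp2 over Igf1, a pair chosen after the levels were seen, is 3.20 to 12.5 at 29 °C and 1.01 to 3.06 at 22 °C.

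Igfbp4 encodes a binding protein that hepatocytes express strongly and that mostly restrains IGF action (chromosome 11, 99041244 to 99054392, plus strand, ENSMUSG00000017493.12). It stood at 1641, 2036.5, 1605 and 2235 CPM at 6 °C, at 1091, 1007, 1266 and 1289 CPM at 22 °C, and at 1065, 1369, 1010.4 and 1531.5 CPM at 29 °C. All 6 °C libraries lay above all 22 °C and all 29 °C libraries. For 6 °C against 22 °C Igfbp4 was the only one of the 10 genes whose groups did not overlap, beside 3.53% of all genes that lay wholly higher. Its log2 fold change there was 0.69 (SE 0.19, 95% interval 0.28 to 1.104, edgeR adjusted p = 0.250). At 29 °C against 6 °C it was -0.60 (SE 0.19, edgeR adjusted p = 0.110), and at 29 °C against 22 °C the interval ran from -0.31 to 0.51. Igfbp4 thus differed from Igf1, whose groups were separate at 29 °C and overlapped between 6 °C and 22 °C.

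**Figure D3:**
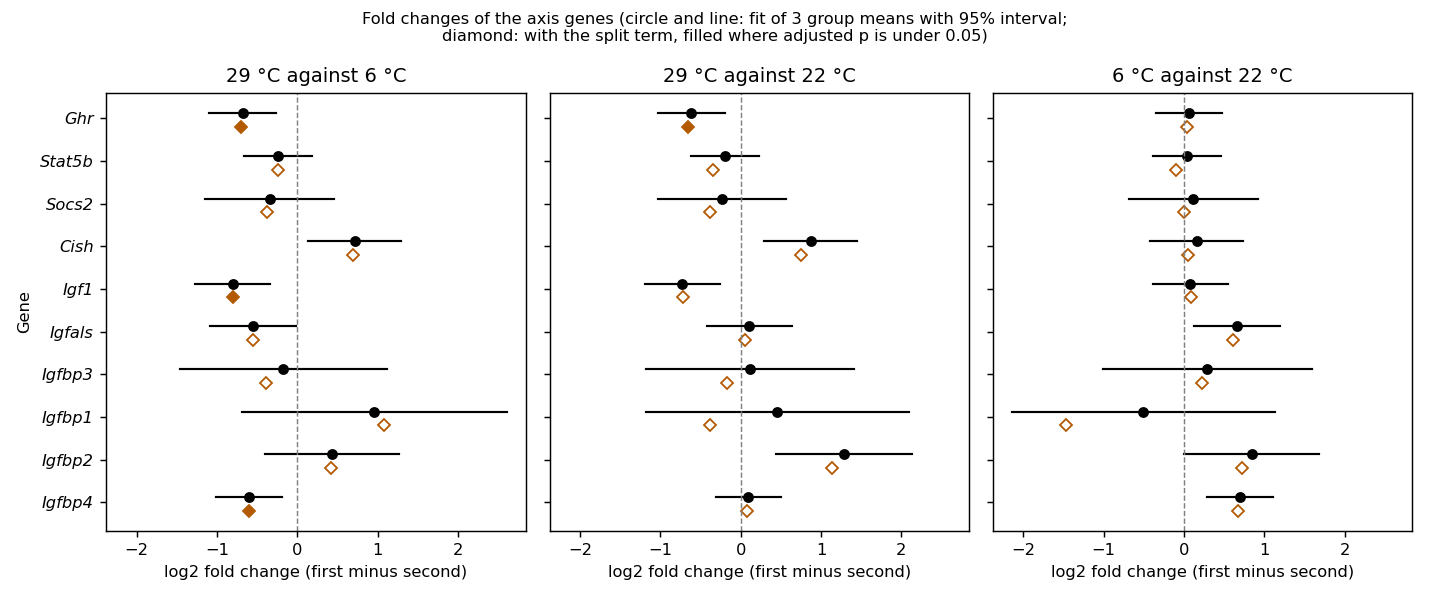
Log2 fold change (horizontal axis) of each of the 10 genes (vertical axis) in the 3 comparisons. Circles with lines are the fit of 3 group means with its 95% interval, and diamonds are the fit with the split term, filled where the adjusted p is under 0.05; Igf1, Ghr and Igfbp4 are filled at 29 °C against 6 °C and Ghr at 29 °C against 22 °C.

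With the split term, 3 of the 10 genes passed for 29 °C against 6 °C, all lower at 29 °C, where 12.6% of all genes passed. They were Ghr (log2 fold change -0.70, edgeR adjusted p = 0.0146), Igf1 (-0.80, edgeR adjusted p = 0.0169) and Igfbp4 (-0.60, edgeR adjusted p = 0.0333). For 29 °C against 22 °C, Ghr alone passed (-0.66, edgeR adjusted p = 0.0477) beside 3.44% of all genes, and Igf1 missed the threshold (edgeR adjusted p = 0.0571). For 6 °C against 22 °C none of the 10 passed, beside 0.367% of all genes. The count of 3 fell to 1 without library 1 (Igfbp4 kept), 10 (Igf1 kept) or 11 (Ghr kept). Ghr lost its call without library 1 or 10, Igf1 without 1 or 11, and Igfbp4 without 2, 4, 9, 10 or 11, while Cish entered without 2 or 9. Ghr lost its call at 29 °C against 22 °C without library 3, 5, 6, 8, 9, 10, 11 or 12. Over the 8 libraries lacking H2-Ea-ps, Ghr, Cish and Igf1 passed at 29 °C against 6 °C (9.91% of all genes) and against 22 °C (17.1%), and Igfbp4 passed at 6 °C against 22 °C (6.69%). There Igf1 was -0.67 against 6 °C (edgeR adjusted p = 0.0148) and -1.03 against 22 °C (edgeR adjusted p = 0.00222), and Cish was 0.84 and 1.17 (edgeR adjusted p = 0.0451 and 0.0160). In this subset 22 °C is represented by libraries 5 and 6 alone, and the hepatocyte marker sum was highest in those libraries. The predicted gene Gm26917 took 0.667% and 0.606% of total counts in libraries 5 and 6, and 1.66% to 8.70% in the others. Its part in these values was not tested.

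Levels between genes were compared as CPM per kilobase of merged exons, averaged over the 12 libraries. Igfbp1 (344) and Igfbp4 (324) were the highest, followed by Igfbp2 (172), Igf1 (47.9), Ghr (41.2) and Igfals (28.5). Stat5b stood at 15.5, and Igfbp3 (4.43), Cish (3.92) and Socs2 (2.36) were the lowest. Merged exons pool all annotated transcripts, 14 for Socs2 and 1 for Igfbp1, and the order of the genes depends on this choice of length. So does the size of the within-library ratios above, though not how libraries compare with one another. In this order the ranges over the 12 libraries overlapped between all neighbours except Stat5b (9.45 to 19.4) and Igfbp3 (1.204 to 9.25). Per kilobase, Igf1 was 32.7 ± 4.44 at 29 °C, 53.9 ± 12.96 at 22 °C and 57.0 ± 14.5 at 6 °C.

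Other genes were ranked by how closely they tracked Igf1 over the 12 libraries, as the mean absolute difference of log2 CPM after each gene was centred on its own mean. Predicted genes, pseudogenes and genes with a mean log2 CPM under 1 were left out. Of 3112 genes that varied at least as much as Igf1 (median difference 0.68), the closest were Ndufb3 (0.0998), Polr3g (0.175), Lifr (0.196), Cyp2c70 (0.211) and Zfand1 (0.212). Ndufb3 encodes a subunit of respiratory complex I, Polr3g a subunit of RNA polymerase III, Lifr the leukaemia inhibitory factor receptor and Cyp2c70 a bile acid hydroxylase. The choice favours genes that are low at 29 °C, as Igf1 is, so their fold changes are given as a description. Lifr and Cyp2c70 fell at 29 °C against 6 °C, with log2 fold changes of -0.97 and -0.91 (edgeR adjusted p = 0.0388 and 0.0352). Either call was lost when any 1 of libraries 1, 2, 3, 4, 9, 10, 11 or 12 was left out. Among the axis genes Ghr was the closest to Igf1 (0.208) and Igfbp1 the farthest (1.16). Ghr was thus closer than Cyp2c70 or Zfand1, but it varied less than Igf1 (SD of log2 CPM 0.398 against 0.461) and was not ranked.

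**Figure D4:**
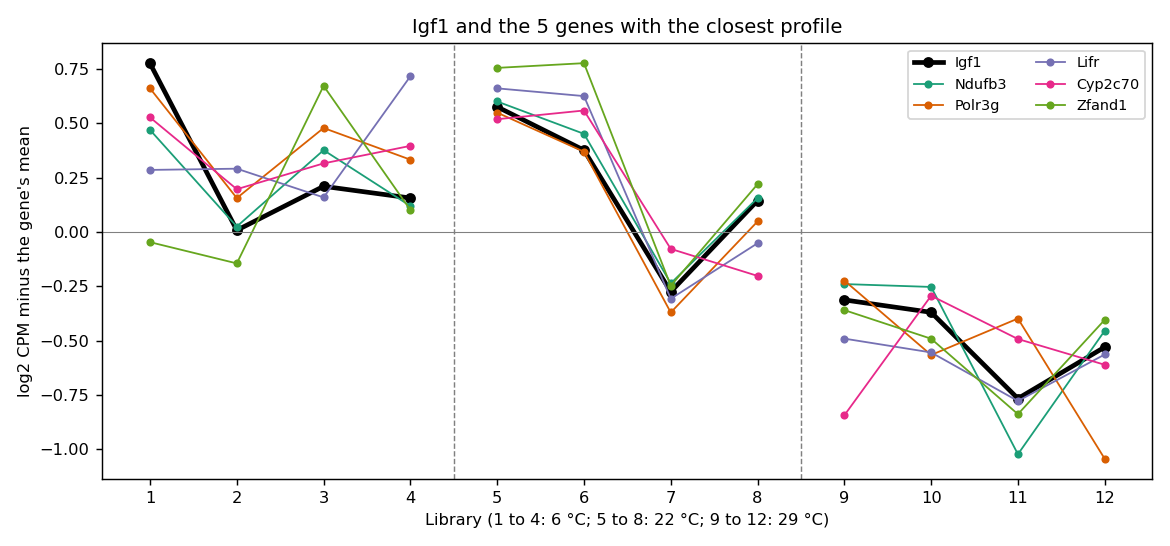
Log2 CPM minus the gene's own mean (vertical axis) in each library (horizontal axis, grouped by temperature with dashed lines). Shown are Igf1 and the 5 genes with the smallest mean absolute difference from it among the genes ranked, which varied at least as much as Igf1. Like Igf1, to which they were matched, the 5 genes lie below their means in libraries 9 to 12; Ndufb3 differs from Igf1 by 0.0998 on average.

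The wider pathway was read from 8 gene lists. Several of them include members of the axis described above and are not independent of those results. Of 18 genes of the receptor and JAK-STAT list, 0 were called in any comparison by edgeR, and their median log2 fold change at 29 °C against 6 °C was -0.01 (0.00054 over all genes). Ptpn1, a phosphatase that acts on JAK2, had the lowest p of that list and stood at 82.9 ± 4.02 CPM at 29 °C, 52.1 ± 11.3 CPM at 22 °C and 56.2 ± 14.4 CPM at 6 °C. Its log2 fold change against 22 °C was 0.67 (edgeR adjusted p = 0.171, and 0.0409 with the split term, a call that held in 5 of 12 fits that left out a library). Of 8 SOCS genes and 7 measured genes of IGF ligands, receptors and substrates, 0 were called, and the same held for 8 measured binding protein genes. The binding protein list had a median of 0.67 at 6 °C against 22 °C (6 of 8 positive), 0.28 at 29 °C against 22 °C (7 of 8) and -0.14 at 29 °C against 6 °C (3 of 8), beside -0.02, -0.0037 and 0.00054 over all genes. Igfals, Igfbp1, Igfbp2, Igfbp3 and Igfbp4, already described, are among its 8 measured genes. Igf1r, the IGF1 receptor gene, is given here for its place in the pathway and not by rule. Its level averaged 42.5 ± 12.5 CPM in the 29 °C libraries and 26.0 ± 5.37 CPM in those at 6 °C (edgeR adjusted p = 0.125).

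Among 7 measured IGFBP proteases and inhibitors, 1 was called at 29 °C against 6 °C, beside 2.53% of all genes. Klkb1, the plasma prekallikrein gene, fell from 145 ± 18.1 CPM to 90.7 ± 14.2 CPM (log2 fold change -0.68, SE 0.15, edgeR adjusted p = 0.0355). Among 20 STAT5 target and growth hormone-responsive genes, 1 rose, 1 fell and 18 did not pass in that comparison, beside 2.53% of all genes in either direction. Klf10, a Krüppel-like repressor, rose from 22.9 ± 13.03 CPM to 147 ± 68.8 CPM (log2 fold change 2.67, SE 0.49, edgeR adjusted p = 0.0241), and Lifr is the gene that fell. The list's median was -0.21, and Igf1, Igfals, Socs2 and Cish are among its 20 genes. Klkb1 lost its call without library 1, 3, 4, 9, 10, 11 or 12. Klf10 lost it without library 4, 10, 11 or 12, without a low-count filter, and over the 8 libraries lacking H2-Ea-ps.

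Many liver genes differ between the sexes because growth hormone is released in pulses in males and more steadily in females. Of 20 genes known as female-biased, 0 were called at 29 °C against 6 °C, 17 had negative fold changes and the median was -0.57, beside 0.00054 over all genes. Sult2a1, a sulfotransferase with close paralogs that may share its reads, had the lowest p of that list. It stood at 243, 82.8, 223 and 69.0 CPM at 6 °C, at 93.6, 188, 88.8 and 51.3 CPM at 22 °C, and at 9.57, 36.1, 45.0 and 31.9 CPM at 29 °C. All 29 °C libraries lay below all others, and the log2 fold change against 6 °C was -2.33 (SE 0.58, edgeR adjusted p = 0.0606, and 0.0379 with the split term). The split-term call held in 3 of 12 fits that left out a library, and over the 8 libraries lacking H2-Ea-ps the value was -1.73 (edgeR adjusted p = 0.122). Of 15 genes known as male-biased, 9 were measured. At 29 °C against 6 °C, 6 of these 9 had negative fold changes too, and their median was -0.41. Among them Cyp7b1 alone was called, beside 2.53% of all genes. Cyp7b1, an oxysterol hydroxylase, fell from 14.7 ± 1.998 CPM to 8.07 ± 1.38 CPM (log2 fold change -0.87, SE 0.20, edgeR adjusted p = 0.0436). It lost that call without library 1, 2, 3, 4, 5, 8, 9, 10, 11 or 12, and with library sizes that leave out mitochondrial and the top 10 genes.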

How the data were processed

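Ribosomal RNA was depleted before sequencing of total liver RNA, per the labels' protocols. The deposited values are raw counts, 55421 genes by 12 libraries, to which the authors applied no normalization. STAR 2.6.1a, bcl2fastq, GRCm38 and DESeq2 1.44.0 appear in the submitters' processing notes without role or order. Neither the counter nor whether it used strand is given in the sources used here. A column's library name was matched to the sample descriptions. The members, lists, marker sets, motifs and alternatives were chosen with earlier results of these data known.

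Counts were tested with edgeR 4.0.16 in R 4.3.3 (TMM, filterByExpr, robust quasi-likelihood fit of 3 group means, 9 residual degrees of freedom, two-sided, Benjamini-Hochberg over 15006 genes, threshold 0.05). A standard error is the log2 fold change over the root of the F statistic, and 95% intervals use the moderated degrees of freedom. The split term marks the 4 libraries in which H2-Ea-ps reached 1 CPM. Alternatives were other scalings and filters, DESeq2 1.42.0, limma 3.58.1, fits of the 8 libraries compared, the split term, and leaving out each library. The limma fit was voom with library quality weights, and limma voom stands for it throughout. Leaving out each library under the split term was added after seeing the data. Gene positions and exon lengths came from GENCODE vM21 (GRCm38), where 54673 identifiers matched with version. Chi-square per degree of freedom was 12.7 to 136 over 18 replicate pairs, so no 2 libraries of a temperature agreed within sampling noise.

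Named genes were the 10 members, Fgf21, and from each list up to 4 called genes (or the gene with the lowest p where none was called). The 5 genes closest to Igf1, among those that varied at least as much, were named too. The 9 marker sets covered hepatocytes, endothelial, stellate, Kupffer, bile duct, neutrophil, erythroid and intestinal cells and sex-linked genes.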

Additional observations from a re-analysis of the deposited data

Results flagged for a closer look

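In 30 groups of 4 libraries (10 genes at 3 temperatures), 3 had a library whose gap to its nearest neighbour took more of the group's range on the log2 scale than Dixon's 95% critical value for 4 samples. Chance flags about 1 in 20 groups. Cish in library 2 stood at 31.4 CPM (gap 0.866 of the range), above the other 6 °C libraries at 17.6 to 19.0 CPM. Igfbp3 in library 9 stood at 3.94 CPM (0.862), below 15.1 to 18.8 CPM in the other 29 °C libraries. Igfbp1 in library 9 stood at 187.7 CPM (0.887), below 792 to 951 CPM in the others. Library 9 is the only 29 °C library with H2-Ea-ps counts, and it had the lowest hepatocyte marker sum (81598 CPM) and the highest neutrophil marker sum (2496 CPM, against 10.6 to 1466 CPM in the other 11). Their part in these 2 values was not tested.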

How the results depend on the processing

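Of 30 fold changes (10 genes in 3 comparisons), 18 kept their direction in all 23 alternatives, and 39 of the 690 values turned sign in the other 12. The number of the 10 genes called, 0 in each comparison, became 1 without a low-count filter, 3 with DESeq2, 3 with limma voom, 3 with the split term, 3 over libraries lacking H2-Ea-ps and 1 with the split term but not library 11 for 29 °C against 6 °C. For 29 °C against 22 °C it became 2 with DESeq2, 1 with the split term and 3 over libraries lacking H2-Ea-ps, and for 6 °C against 22 °C 1 with DESeq2 and 1 over libraries lacking H2-Ea-ps. Leaving out 1 library gave 0 to 1 for 29 °C against 6 °C (Igf1 without library 7). Under the split term it gave 1 to 3 for 29 °C against 6 °C and 0 to 2 for 29 °C against 22 °C. The cause of these changes was not tested. Values that turned sign for 29 °C against 6 °C were Igfbp3 with limma voom (0.17) and over libraries lacking H2-Ea-ps (0.054). For 29 °C against 22 °C they were Igfbp3 with the split term (-0.17), with that term but not library 11 (-0.21) and over libraries lacking H2-Ea-ps (-0.22), and Igfbp1 with the split term (-0.38), and with that term but not library 11 (-0.38). For 6 °C against 22 °C they were, over libraries lacking H2-Ea-ps, Ghr (-0.30), Igf1 (-0.36), Socs2 (-0.057) and Igfbp3 (-0.27). With limma voom they were Ghr (-0.00044) and Igf1 (-0.055), with the split term Stat5b (-0.10) and Socs2 (-0.0045), with that term but not library 11 Stat5b (-0.10) and Socs2 (-0.020), and Stat5b with library sizes that leave out mitochondrial and the top 10 genes (-0.045). Leaving out 1 library turned the sign within these ranges. For 29 °C against 6 °C Socs2 ran from -0.55 to 0.023 and Igfbp3 from -0.37 to 0.33. For 29 °C against 22 °C Igfals ran from -0.044 to 0.31, Igfbp3 from -0.20 to 0.58 and Igfbp4 from -0.018 to 0.19. For 6 °C against 22 °C Ghr ran from -0.050 to 0.18, Stat5b from -0.057 to 0.16, Socs2 from -0.25 to 0.32, Cish from -0.078 to 0.28, Igf1 from -0.11 to 0.21 and Igfbp3 from -0.22 to 0.76. None of these values passed. Library sizes without mitochondrial and abundant genes moved the median of all genes at 29 °C against 6 °C to 0.11, and Igf1 there was -0.70. No paired analysis was possible because the libraries are numbered 1 to 12 with no number shared between temperatures. Among the 10 genes Igfbp3 had the lowest depth, at 51 to 346 counts per library.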
